A study of Mus musculus with 20 samples.

Results

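The BCL2 family decides whether mitochondria release the proteins that start cell death. Its members measured here were the 10 genes Mcl1, Bcl2, Bcl2l1, Bcl2l11, Bbc3, Bax, Bak1, Bid, Bad and Bmf, taken by gene symbol from the 37681 genes listed in each count table, and every member matched 1 row. The livers came from 10 male C57/BL6 mice (C57/B6J from Jackson Labs) aged 12 weeks, of which 5 received IL-1β at 20 µg/kg by intraperitoneal injection and 5 received saline (hereafter untreated), 4 hours before collection. IL-1β is an inflammatory cytokine, and hepatocytes respond to it with the acute-phase program. The labels name no transgene or deletion in either group. Each liver RNA was sequenced once on Illumina and once on Ion Torrent, and both sets of reads were aligned in 3 ways, which gave 6 count tables. The question for each table was whether the reads of a member differed between treated and untreated livers, with the Illumina data aligned by STAR as the main table.

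Family members fall into 3 roles. The pro-survival proteins MCL1, BCL2 and BCL-xL (from Bcl2l1) hold the effectors BAX and BAK (from Bak1) in check, and freed effectors open pores in the outer mitochondrial membrane. The BH3-only proteins BIM (from Bcl2l11), PUMA (from Bbc3), BID, BAD and BMF report cell stress by pressing their BH3 helix into a groove of the pro-survival proteins, and some of them also engage the effectors directly. In liver, MCL1 and BCL-xL are both known to keep hepatocytes alive, and BID links death receptors to the mitochondria.

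The BH3 helix is the 1 element that all 3 roles share, so its coding sequence is shown for each member. Capitals mark the codon of the conserved leucine and that of the aspartate 5 codons further on, which contact the groove.
Mcl1: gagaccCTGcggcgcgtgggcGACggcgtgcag
Bcl2: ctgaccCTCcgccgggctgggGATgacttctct
Bcl2l1: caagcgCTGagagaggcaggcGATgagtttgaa
Bax: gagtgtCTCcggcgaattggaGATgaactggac
Bak1: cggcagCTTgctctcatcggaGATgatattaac
Bcl2l11: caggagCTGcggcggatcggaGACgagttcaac
Bbc3: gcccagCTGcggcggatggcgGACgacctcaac
Bid: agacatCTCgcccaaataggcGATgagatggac
Bad: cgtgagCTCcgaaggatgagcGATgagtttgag
Bmf: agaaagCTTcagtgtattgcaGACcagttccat

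These are the GENCODE vM1 coding sequences on NCBIM37 (mm9), written 5′ to 3′ on the coding strand. The pattern searched was a leucine, any 3 residues, a glycine, alanine or serine, an aspartate and then an aspartate, glutamate, glycine or glutamine, read in frame. Each member encoded it at 1 place, within 1 exon, and 9.7% of the 21918 coding genes with a complete start encoded it somewhere. Among the 33 bases, 5 positions were the same in all members. The pattern itself fixed the middle T of the leucine codon and the GA of the aspartate codon. These bases are part of that count and of the pairwise counts that follow. The closest pair, Bcl2l11 and Bbc3, shared 24 bases and the most distant pair, Bcl2l1 and Bmf, shared 12. The stretches lie at chr3:95463353-95463385 in Mcl1, chr1:108609152-108609184 in Bcl2, chr2:152655433-152655465 in Bcl2l1, chr7:52721367-52721399 in Bax and chr17:27159476-27159508 in Bak1. Those of the BH3-only members lie at chr2:127972880-127972912 in Bcl2l11, chr7:16899116-16899148 in Bbc3, chr6:120847307-120847339 in Bid, chr19:7025276-7025308 in Bad and chr2:118370836-118370868 in Bmf. Mcl1, Bcl2l11, Bbc3 and Bad are on the plus strand and the others on the minus strand.

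The libraries held 10568530 to 11046256 reads on genes with Illumina and 12199528 to 12723326 with Ion Torrent in the STAR tables. The acute-phase genes Saa1, Saa2 and Lcn2 were higher in treated livers by 6.99, 8.58 and 9.90 on the log2 scale, and Alb, the main hepatocyte transcript, averaged 54580 CPM (counts scaled to a common library size) in treated and 78880 in untreated livers. The 5 hepatocyte markers summed to 63030 to 75540 CPM in treated and 88720 to 108000 in untreated livers, and 3 of them were called lower. Of 8 neutrophil markers, 6 had enough reads to be tested and all 6 of those were called higher, with sums of 50.2 to 109.3 against 2.05 to 6.16 CPM, and Ngp, Camp and Ly6g had no read in any untreated Illumina library. Cxcr2, Retnlg and Ngp averaged 46.4, 65.8 and 16.4 reads in treated against 2.2, 1.2 and 0 in untreated Illumina libraries. Such markers had enough reads to be tested through the treated libraries, so the direction of their calls was largely set beforehand. Of 7 macrophage markers 1 was called higher and 3 lower, of 6 endothelial ones 2 and 2, of 5 stellate ones 0 and 2, of 5 cholangiocyte ones 2 and 0, and of 4 tested lymphocyte ones 0 and 2. Whole liver was measured, so fewer cells of a type and less RNA per cell cannot be told apart, and the part of these cell shifts in the results below was not tested. The 2 libraries of mouse UNT_9584 differed from each other more than those of any other mouse: their deviations from the untreated mean of their platform correlated across genes at r = 0.25, against 0.59 to 0.74 in the other 9 mice. This value does not say which library was unusual. The SD of these log2 deviations was 0.32 in its Illumina library, the largest of the 10, and 0.24 in its Ion Torrent library, within the 0.22 to 0.34 of the others, while the study describes shifted read lengths for the latter, which gene counts do not show. Results are therefore also given without mouse UNT_9584 where that changes a call.

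Each gene was compared between 5 treated and 5 untreated livers with the quasi-likelihood test of edgeR on TMM-scaled counts, with Benjamini-Hochberg adjustment over the 15578 genes tested, and a gene was called at an adjusted p below 0.05. CPM values are TMM-scaled, and fold changes are relative to that scaling. With the columns taken as already normalized, the median log2 fold change of genes averaging 10 reads or more was -0.17 in the Illumina STAR table and -0.16 in the Ion Torrent STAR table. In the Illumina STAR table, 3 of the 10 members were called higher in treated livers, namely Bcl2l1, Bax and Bak1, against 22.7% of all genes tested. A further 3 of the 10 were called lower, namely Bmf, Bcl2l11 and Bbc3, against 22.9% of all genes. The groups did not overlap for 4 members, which were Bcl2l1, Bax, Bcl2l11 and Bmf, against 33.9% of all genes. With the columns taken as already normalized, 2 members were called higher and 4 lower, since Bak1 was lost and Bcl2 gained, and over all genes the calls went from 3541 higher and 3575 lower to 2509 and 4689. The share of members called was thus near that of genes at large, and what follows describes which members moved, in which direction and by how much.

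**Figure D1:**
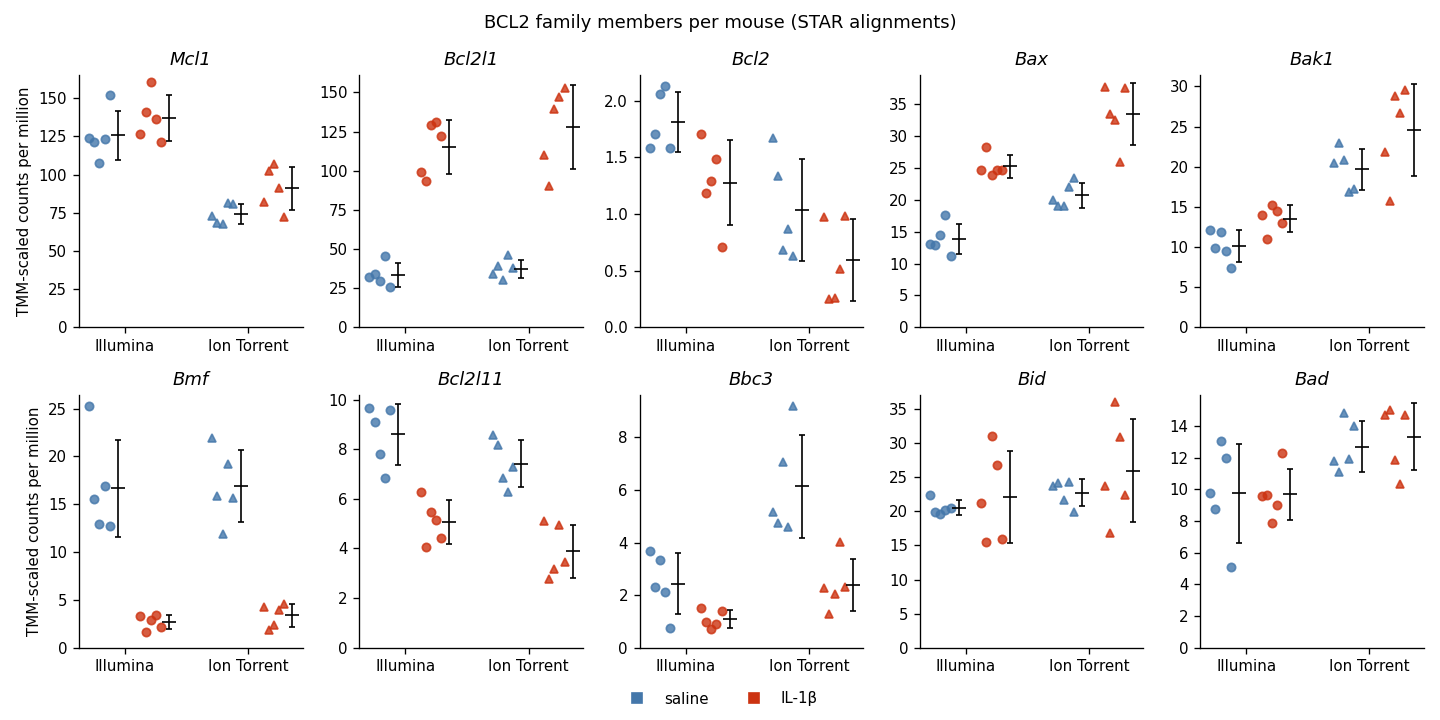
Each panel plots 1 member, with TMM-scaled CPM from the STAR alignments on the vertical axis, 1 point per mouse (untreated, given saline, in blue and IL-1β treated in red, circles for Illumina, triangles for Ion Torrent) and the mean ± SD of 5 mice beside them. The treated points of Bcl2l1 lie above 90 and the untreated points below 46 on both platforms, whereas those of Bmf lie below 5 and above 11.

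Among the pro-survival members, Bcl2l1 was the only one called in the Illumina STAR table, and it was 3.45-fold higher in treated livers. Its CPM in the treated mice ILB_9577, ILB_9578, ILB_9579, ILB_9582 and ILB_9583 was 99.4, 93.8, 129.4, 131.3 and 122.3. In the untreated mice UNT_9574, UNT_9575, UNT_9576, UNT_9580 and UNT_9584 it was 32.4, 34.1, 29.3, 45.8 and 25.6. Every treated liver was above every untreated one, the lowest treated one being ILB_9578 and the highest untreated one UNT_9580. The log2 fold change was 1.79 ± 0.15 (SE, n = 5 and 5, edgeR adjusted p = 2.82e-07). In the Ion Torrent libraries of the same mice the CPM was 109.9, 90.1, 139.5, 147.4 and 152.8 in treated and 33.9, 39.0, 30.1, 45.9 and 38.0 in untreated livers. The groups again did not overlap, mouse ILB_9578 was the lowest treated liver on both platforms, and the log2 fold change was 1.78 ± 0.15 (edgeR adjusted p = 8.79e-08). Over the 6 tables it lay between 1.75 and 1.84, and each table called it. Bcl2l1 is spliced into BCL-xL and into a short form, BCL-xS, that favours death, and counts per gene do not separate them.

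Mcl1, whose short-lived protein makes its transcript level matter from hour to hour, showed a much smaller difference. Its Illumina CPM was 126.5, 140.6, 160.6, 136.2 and 121.1 in treated and 124.0, 121.5, 107.3, 123.2 and 151.9 in untreated livers. The groups overlapped, and mouse UNT_9584 was above all treated livers but mouse ILB_9579. The log2 difference was 0.13 ± 0.11 (95% interval -0.11 to 0.36, edgeR adjusted p = 0.378). In the Ion Torrent STAR libraries, Mcl1 was at 82.2, 102.1, 107.1, 91.1 and 72.4 CPM in treated and 72.8, 68.4, 67.8, 81.4 and 80.5 CPM in untreated livers. The 5 treated mice kept the same order on both platforms, from ILB_9579 at the top to ILB_9583 at the bottom. The log2 difference was 0.29 ± 0.12 with an adjusted p of 0.0496 by edgeR, and the GSNAP and STAR + Bowtie2 tables of Ion Torrent gave 0.32 in both with adjusted p-values of 0.0299 and 0.0283. This call was lost when the columns were taken as already normalized (0.14, adjusted p = 0.376) and without mouse UNT_9584 (0.33, adjusted p = 0.0512). In the Illumina table the value without that scaling was -0.05, so no direction is given for Mcl1 there.

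Bcl2, named for the lymphoma translocation through which the family was found, was the lowest member per length of exon. It held 7 to 18 reads in the treated and 17 to 24 in the untreated Illumina libraries, and in treated livers Bbc3 had fewer reads still, with a mean of 11.2 against 13.0. Of the treated livers, 4 lay below every untreated liver and mouse ILB_9577 lay among them. The log2 difference was -0.50 ± 0.25 (95% interval -1.02 to 0.02, edgeR adjusted p = 0.113), and no table called it, with values from -0.80 to -0.34. The exons of Bcl2 share 558 bases with D630008O14Rik on the other strand. The use of strand in counting is not given in the sources used here, so reads of the pair cannot be told apart.

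Of the effectors, Bax was 1.82-fold higher in treated livers. BAX is the effector that waits in the cytosol and inserts into the mitochondrial membrane once activated. Its Illumina CPM was 24.7, 28.3, 23.8, 24.6 and 24.7 in treated and 13.1, 12.9, 14.5, 17.6 and 11.2 in untreated livers. The groups did not overlap, and 4 of the 5 treated livers lay within 1 CPM of each other. This is a log2 fold change of 0.86 ± 0.12 (edgeR adjusted p = 4.18e-05). With Ion Torrent STAR the CPM was 37.7, 33.5, 32.4, 25.8 and 37.5 against 19.9, 19.0, 19.0, 22.0 and 23.4, again without overlap. The log2 fold change there was 0.69 ± 0.12 (edgeR adjusted p = 0.000219). In the GSNAP and STAR + Bowtie2 tables of Ion Torrent the groups overlapped, with mouse ILB_9582 below mouse UNT_9584. All 6 tables called Bax higher, at 0.65 to 0.87.

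Bak1, whose protein sits on the mitochondrial membrane from the start, gave a smaller value that depended on the table. Its Illumina CPM was 13.9, 11.04, 15.3, 14.5 and 13.0 in treated and 12.2, 9.88, 11.9, 9.51 and 7.34 in untreated livers. The groups overlapped through mouse ILB_9578, and the other 4 treated livers were above all untreated ones. On the log2 scale the change was 0.41 ± 0.15 (edgeR adjusted p = 0.0349). Without mouse UNT_9584, the lowest untreated liver, it was 0.32 with an edgeR adjusted p of 0.0682, and leaving out mouse UNT_9575, ILB_9577, ILB_9579, UNT_9580, ILB_9582 or ILB_9583 also ended the call. None of the 3 Ion Torrent tables called Bak1, with 0.32 ± 0.16 and an edgeR adjusted p of 0.124 in that of STAR, where leaving out mouse ILB_9578 gave 0.47 and an adjusted p of 0.00842. The exons of Bak1 share 357 bases with Ggnbp1 on the other strand.

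The BH3-only members held the lower calls. Bmf, whose protein is tethered to the cytoskeleton until stress frees it, was 6.17-fold lower in treated livers. Its reads in the Illumina libraries numbered 35, 17, 29, 34 and 22 in treated and 303, 183, 151, 190 and 137 in untreated livers, or 3.32, 1.68, 2.88, 3.37 and 2.22 CPM against 25.2, 15.6, 13.0, 16.9 and 12.7. The lowest untreated liver was well above the highest treated one, and mouse UNT_9574 stood highest. The log2 fold change was -2.63 ± 0.23 (edgeR adjusted p = 4.24e-07). Ion Torrent gave 53, 22, 28, 46 and 51 reads in treated and 302, 214, 157, 242 and 199 in untreated livers, again without overlap. There the log2 fold change was -2.31 ± 0.23 (edgeR adjusted p = 5.86e-07), and the 6 tables lay between -2.64 and -2.31. Of the 10 members, Bmf had the largest absolute log2 fold change.

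Bcl2l11 encodes BIM, which binds all pro-survival members and, like BMF, a dynein light chain. It was 1.69-fold lower in treated livers. The Illumina CPM was 6.26, 4.04, 5.46, 5.16 and 4.43 in treated and 9.66, 9.11, 7.81, 6.85 and 9.57 in untreated livers. The groups did not overlap, although mouse UNT_9580 and mouse ILB_9577 came within 1 CPM of each other. On the log2 scale the change was -0.76 ± 0.16 (edgeR adjusted p = 0.00128). In the Ion Torrent libraries the CPM was 5.10, 2.78, 3.16, 4.95 and 3.47 against 8.56, 8.16, 6.83, 6.26 and 7.30, and the log2 fold change was -0.93 ± 0.20 (edgeR adjusted p = 0.00110). Mouse ILB_9577 was the highest treated and mouse UNT_9580 the lowest untreated liver on both platforms with STAR. In the STAR + Bowtie2 table of Ion Torrent the groups overlapped, with mice ILB_9577 and ILB_9582 at 5.60 and 5.76 CPM above mouse UNT_9580 at 5.24. All 6 tables called Bcl2l11 lower, at -0.93 to -0.67.

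Bbc3 encodes PUMA, a transcriptional target of p53. Few reads covered it, with 16, 10, 7, 9 and 14 in the treated and 44, 27, 39, 24 and 8 in the untreated Illumina libraries. Untreated mouse UNT_9584, with 8 reads, fell among the treated livers, and the other 4 untreated livers were above all treated ones. The fitted log2 fold change was -1.15 ± 0.36 (2.21-fold lower, edgeR adjusted p = 0.0172). It was -1.37 with an edgeR adjusted p of 0.00110 without mouse UNT_9584, and -0.96 with an adjusted p of 0.0503 without mouse UNT_9574. In the Ion Torrent STAR libraries, Bbc3 had 28, 15, 24, 47 and 26 reads in treated and 71, 64, 93, 58 and 117 in untreated livers. There the groups did not overlap, and mouse UNT_9584 was the highest untreated liver instead of the lowest. The log2 fold change was -1.36 ± 0.28 (edgeR adjusted p = 0.000783). In the GSNAP and STAR + Bowtie2 tables of Ion Torrent the groups overlapped through mouse ILB_9582. All 6 tables called Bbc3 lower, at -1.36 to -0.96.

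Bid encodes the protein that caspase-8 cuts to carry a death receptor signal to the mitochondria. Its Illumina CPM was 21.2, 15.6, 31.1, 26.9 and 16.01 in treated and 22.5, 19.9, 19.6, 20.3 and 20.5 in untreated livers. The untreated livers lay close together, at 20.6 ± 1.14 CPM (SD, n = 5), and the treated ones were spread on both sides of them, at 22.2 ± 6.78. In the Ion Torrent libraries the treated livers had 23.7, 16.8, 36.02, 30.95 and 22.4 CPM. These 5 mice kept the same order on both platforms, from ILB_9579 down to ILB_9578. The log2 difference was 0.11 ± 0.17 with Illumina (95% interval -0.25 to 0.47, edgeR adjusted p = 0.657), and no table called Bid. Its exons share 628 bases with Bcl2l13, another gene of the family, on the other strand.

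Bad encodes a protein that survival kinases hold inactive by phosphorylation. Its Illumina CPM ranged from 7.85 to 12.3 in treated and from 5.11, in mouse UNT_9584, to 13.1 in untreated livers, so that the treated range lay inside the untreated one. The log2 difference was -0.01 ± 0.21 (95% interval -0.46 to 0.44, edgeR adjusted p = 1), and with Ion Torrent it was 0.07 ± 0.14 (95% interval -0.24 to 0.37, edgeR adjusted p = 0.756). No table called it. Its exons share 517 bases with Gpr137 on the other strand.

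**Figure D2:**
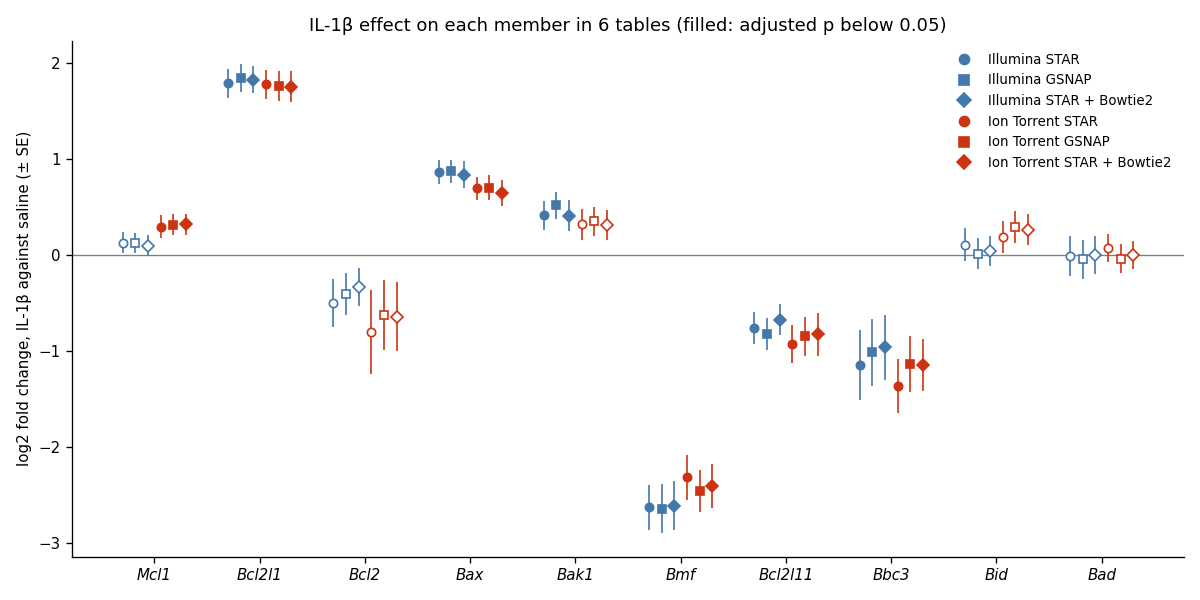
The vertical axis gives the log2 fold change of IL-1β treated against untreated livers ± SE (5 mice per group) for each member on the horizontal axis, with Illumina tables in blue, Ion Torrent tables in red and a marker for each aligner. Filled markers passed an adjusted p of 0.05 by edgeR, which in all 6 tables held for Bcl2l1, Bax, Bmf, Bcl2l11 and Bbc3, in the 3 Ion Torrent tables for Mcl1 and in the 3 Illumina tables for Bak1.

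Every one of the 6 tables called 6 of the 10 members, and 5 of these were the same in all. Over all genes, the share called in either direction was 47.5% with GSNAP and 47.4% with STAR + Bowtie2 for Illumina, and 42.1%, 46.4% and 46.7% with STAR, GSNAP and STAR + Bowtie2 for Ion Torrent. A call for Mcl1 or Bak1 on 1 platform only does not show that the platforms differ, so the platform-by-treatment term was fitted to the 20 STAR libraries with the mouse as a block. It was called for 0 of the 10 members by edgeR, against 0.00642% of all genes (1 gene). An unadjusted p below 0.05 was found for 0 members, against 1090 of the 15578 genes. With GSNAP and with STAR + Bowtie2 it was again called for 0 members, against 10 and 12 of the 15578 genes. Of these genes, 1215 and 1210 had an unadjusted p below 0.05, as did 1 member in each. The members were Bid with GSNAP, at 0.26 (95% interval 0.04 to 0.49, unadjusted p = 0.0223, edgeR adjusted p = 0.586), and Mcl1 with STAR + Bowtie2, at 0.20 (95% interval 0.03 to 0.38, unadjusted p = 0.0235, edgeR adjusted p = 0.621). With the STAR libraries, DESeq2 and limma-voom with the same block also called 0 members. For Mcl1 the STAR term was 0.17 ± 0.09 on the log2 scale, Ion Torrent minus Illumina (95% interval -0.002 to 0.35, unadjusted p = 0.0527, edgeR adjusted p = 0.702). For Bak1 it was -0.10 ± 0.14 (95% interval -0.40 to 0.19, edgeR adjusted p = 0.914). Of the 10 STAR terms, the widest interval was that of Bcl2, at -1.25 to 0.67, and the narrowest was that of Mcl1.

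To compare members with each other, the TMM-scaled counts were divided by the length of their exons, as reads per kilobase (RPKM). In untreated Illumina livers Mcl1 led with 36.03 ± 4.66 RPKM (SD, n = 5), followed by Bax with 10.3 ± 1.81, Bcl2l1 with 7.06 ± 1.61, Bid with 5.79 ± 0.32, Bad with 4.85 ± 1.54, Bak1 with 4.22 ± 0.82 and Bmf with 3.18 ± 0.97. Bbc3 with 1.21 ± 0.57, Bcl2l11 with 1.07 ± 0.15 and Bcl2 with 0.25 ± 0.04 were the lowest. Neighbours in this order were apart without overlap only between Mcl1 and Bax, between Bmf and Bbc3, and between Bcl2l11 and Bcl2. Bid was above Bad, and Bad above Bak1, in 3 of 5 livers each, so these neighbours did not differ beyond their spread. In treated livers the order was Mcl1 with 39.3 ± 4.38, Bcl2l1 with 24.3 ± 3.69, Bax with 18.8 ± 1.31, Bid with 6.24 ± 1.91, Bak1 with 5.63 ± 0.68 and Bad with 4.82 ± 0.81. Bcl2l11, Bbc3 and Bmf followed with 0.63 ± 0.11, 0.55 ± 0.17 and 0.51 ± 0.14, ahead of Bcl2 with 0.18 ± 0.05. Bmf thus stood among the last members in treated livers, where Bbc3 was above it in 3 of 5, and Bcl2l1 stood above Bax in 4 of 5. The top of the treated order changed with the length and the platform. With the longest transcript in place of all exons, which shortens Bcl2l1 from 4734 to 2417 bases and leaves Mcl1 at 3485, Bcl2l1 came first in treated Illumina livers, at 47.7 ± 7.23 against 39.3 ± 4.38 RPKM for Mcl1. In treated Ion Torrent libraries Bcl2l1 and Mcl1 were at 27.03 ± 5.67 and 26.1 ± 4.08 RPKM per length of all exons, with overlapping ranges, and with the longest transcript Bcl2l1 was at 52.9 ± 11.1 and Bax, at 31.8 ± 4.599, also exceeded Mcl1. In untreated livers Mcl1 came first, and in both groups Bcl2 came last, with either length on both platforms, but the order of Bax, Bcl2l1 and Bak1 between them changed.

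**Figure D3:**
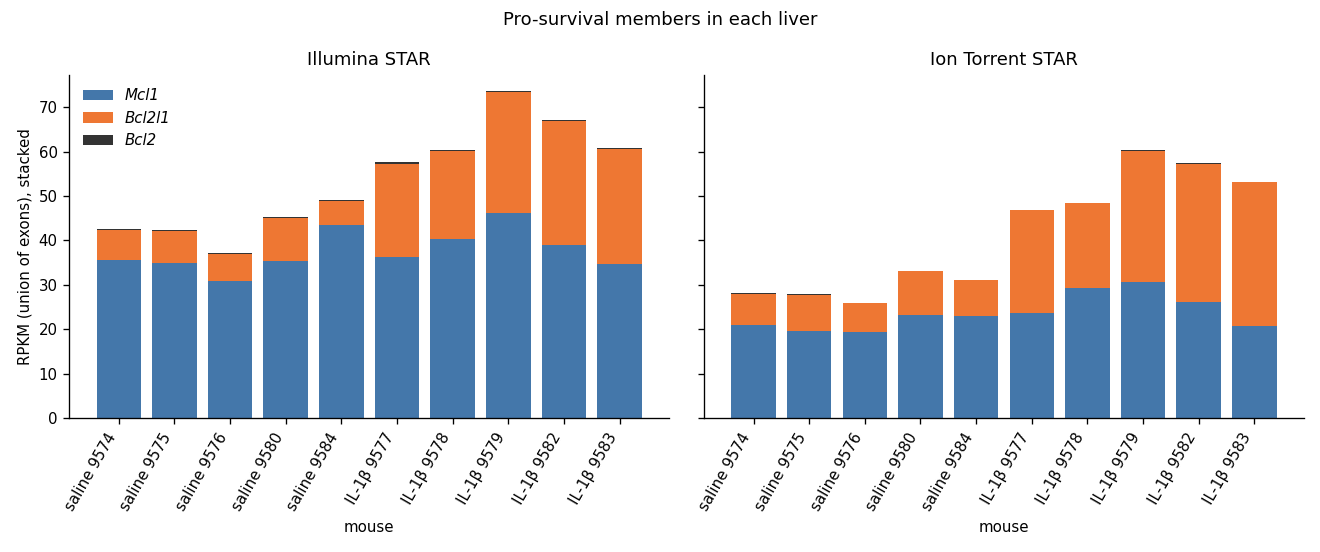
Bars stack the RPKM of Mcl1 (blue), Bcl2l1 (orange) and Bcl2 (black, barely visible) for each mouse on the horizontal axis, untreated (saline) at left and IL-1β treated at right, in the STAR tables of both platforms. The Bcl2l1 part grows from 5.398 to 9.67 RPKM in untreated to 19.8 to 27.7 RPKM in treated Illumina livers.

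Of the summed RPKM of Mcl1, Bcl2 and Bcl2l1, Mcl1 made up 83.0% ± 3.77 in untreated and 61.6% ± 3.90 in treated Illumina livers (SD, n = 5). Bcl2l1 made up 16.4% ± 3.69 and 38.1% ± 3.94. Other family genes are not part of these shares or of the sums by role below. The pro-survival gene Bcl2l2, left out in this way, averaged 31.5 CPM in untreated and 29.8 CPM in treated Illumina livers. Bcl2l1 averaged 33.4 CPM in the same untreated livers. With Ion Torrent the share of Mcl1 was 72.7% ± 2.31 in untreated and 49.3% ± 7.90 in treated livers. These shares depend on the length used. With the longest transcript, the Illumina share of Mcl1 was 71.9% in untreated and 45.2% in treated livers. The ratio of Bcl2l1 to Bax, both per length, was 0.68 ± 0.07 in untreated and 1.31 ± 0.26 in treated Illumina livers, and 0.51 ± 0.07 and 1.11 ± 0.34 in those of Ion Torrent. With the longest transcript it was 1.045 and 2.003 with Illumina and 0.785 and 1.709 with Ion Torrent, so that whether Bcl2l1 lay below Bax in untreated Illumina livers depended on the length, while the ratio was higher in treated livers with either. Summed by role, the pro-survival members were at 43.3 ± 4.39 RPKM in untreated and 63.8 ± 6.46 in treated Illumina livers, the effectors at 14.6 ± 2.17 and 24.5 ± 0.74, and the BH3-only members at 16.1 ± 2.51 and 12.8 ± 1.46. The sums of the first 2 roles did not overlap between the groups on either platform, with either length. Those of the BH3-only members overlapped with Illumina, from 12.3 to 19.0 in untreated and from 10.5 to 14.2 in treated livers. With Ion Torrent they did not overlap per length of all exons, the lowest untreated liver being at 18.7 and the highest treated one at 17.9, and overlapped narrowly with the longest transcript, from 25.3 to 27.7 in untreated and from 18.95 to 25.4 in treated livers. These sums describe transcripts, and no test was run on them.

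Some mice were low in several members at once. Among the treated livers, mouse ILB_9578 was the lowest in 5 of the 10 members with Illumina and in 7 with Ion Torrent, and Bcl2l1, Bcl2l11, Bak1, Bid and Bmf were lowest there on both platforms. Among the untreated livers, mouse UNT_9584 was the lowest in 7 members with Illumina but in 2 with Ion Torrent. How often these mice were the lowest over all genes was not counted, so these counts are not read as particular to the members. The SD of the log2 deviations across genes was 0.277 and 0.336 in the libraries of mouse ILB_9578, the largest among treated livers on each platform. Across genes, deviations were correlated with the GC content of the exons, with a sign and size that differed between libraries. In the Illumina library of mouse UNT_9584 the Spearman correlation between the deviation from the untreated mean and exon GC was -0.65 across 10841 genes, and in its Ion Torrent library it was 0.22 across 10848. In mouse ILB_9578 the values were -0.43 and -0.59. They were 0.45 and 0.41 in mouse ILB_9577 and 0.44 and 0.62 in mouse ILB_9583. The members with the highest GC, namely Bbc3 (64.6%), Bax (61.8%), Bad (59.3%) and Bak1 (57.1%), had log2 deviations of -1.13, -0.28, -0.80 and -0.42 in the Illumina library of mouse UNT_9584 and of 0.59, 0.18, 0.14 and -0.18 in its Ion Torrent library. Mcl1, with 49.1%, deviated by 0.28 and 0.12. In mouse ILB_9578 the deviations of Bbc3, Bax, Bad and Bak1 from the treated mean were -0.079, 0.166, 0.012 and -0.275 with Illumina. With Ion Torrent they were -0.641, 0.017, 0.182 and -0.586. Bmf (54.1%), Bcl2l1 (53.9%), Bid (49.9%), Mcl1 (49.1%), Bcl2l11 (46.9%) and Bcl2 (46.3%) were at -0.52, -0.282, -0.443, 0.044, -0.28 and -0.048 in its Illumina library. In its Ion Torrent library they were at -0.665, -0.476, -0.567, 0.18, -0.386 and -0.474. The part of GC content in these differences was not tested.

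**Figure D4:**
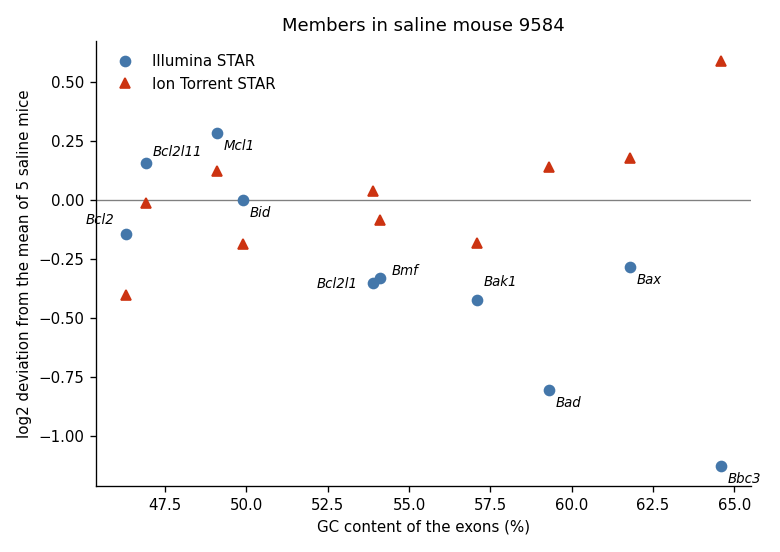
For mouse UNT_9584, the vertical axis gives each member's log2 deviation from the mean of the 5 untreated mice and the horizontal axis the GC content of its exons in percent, with Illumina as circles and Ion Torrent as triangles. Bbc3, at 64.6% GC, is at -1.13 with Illumina and at 0.59 with Ion Torrent.

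The genes around the members were taken from 3 lists. Of 16 other BCL2 family genes, 11 had enough reads to be tested. Of these, 2 were called higher, 2 lower and 7 neither, against 22.7% higher and 22.9% lower over all genes. Their median log2 fold change was -0.08 beside 0.00 over all genes. Bcl2a1a and Bcl2a1b, near-identical copies of the pro-survival gene A1 whose reads counting could split between them, were called higher from a mean of 7.80 and 10.6 reads in treated and 0.2 and 2.2 reads in untreated Illumina libraries (edgeR adjusted p = 1.14e-05 and 0.000311). Both had enough reads to be tested through the treated libraries, so a lower call could hardly have been made. Their calls are therefore not read against the share over all genes. With Ion Torrent, Bcl2a1b was called and Bcl2a1a was not (edgeR adjusted p = 0.000448 and 0.0566). Those called lower were Bik, a BH3-only gene, at -1.44 ± 0.31 on the log2 scale (edgeR adjusted p = 0.00159), and Bnip3, which marks mitochondria for removal under low oxygen, at -0.65 ± 0.13 (edgeR adjusted p = 0.000715).

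Of the 13 genes reported here that act after the mitochondria open, all were tested, with a median log2 fold change of -0.16. The calls were 4 higher and 5 lower, against 22.7% and 22.9% of all genes. Apaf1, the scaffold of the apoptosome, was higher by 1.78 ± 0.21 (3.43-fold, edgeR adjusted p = 6.93e-06). Casp9, the caspase that the apoptosome activates, was lower, at -1.45 ± 0.12 (2.74-fold, edgeR adjusted p = 1.88e-07). The caspase inhibitor Xiap was lower (-0.83 ± 0.12), while Birc2 and Birc3, which encode the related proteins cIAP1 and cIAP2, were higher (0.75 ± 0.14 and 0.75 ± 0.19), with edgeR adjusted p-values of 4.17e-05, 0.00042 and 0.00389. The other 4 called genes were Diablo, which rose, and Aifm1, Vdac1 and Vdac2, which fell. With Ion Torrent STAR, 3 were called higher and 4 lower, since Diablo and Vdac2 were not called. With the Illumina columns taken as already normalized, 3 were called higher and 7 lower, since the call for Diablo was lost (0.06, edgeR adjusted p = 0.656) and Cycs and Vdac3, named here after their values were seen, were called lower.

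Of 16 regulators of the members, all were tested, with a median log2 fold change of 0.52. The calls were 9 higher and 2 lower, against 22.7% and 22.9% of all genes. Ddit3, the stress transcription factor CHOP that can act on Bcl2l11 and Bbc3, was higher by 2.84 ± 0.18 (7.14-fold, edgeR adjusted p = 1.64e-08). Trp53, whose protein p53 drives Bbc3 and Bax, was also called higher (0.67 ± 0.16, edgeR adjusted p = 0.00276), and Foxo3, an activator of Bcl2l11, was called lower. Pim3, a kinase that phosphorylates BAD, was higher by 1.52 ± 0.16 (edgeR adjusted p = 2.35e-06), and Cflar, which restrains the caspase-8 that cuts BID, by 0.81 ± 0.12 (edgeR adjusted p = 7.74e-05). The dynein light chains that hold BIM and BMF moved apart, with Dynll1 called higher and Dynll2 lower, the latter at -0.76 ± 0.09 (edgeR adjusted p = 1.17e-05). The remaining calls were Akt2, Ywhaz, Huwe1 and Fbxw7, all higher, of which Huwe1 and Fbxw7 lost the call with the columns taken as already normalized, which left 7 higher and 2 lower. With Ion Torrent STAR, 8 were called higher and 2 lower, since those 2 genes were again not called and Casp8, which encodes caspase-8, was called higher.

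**Figure D5:**
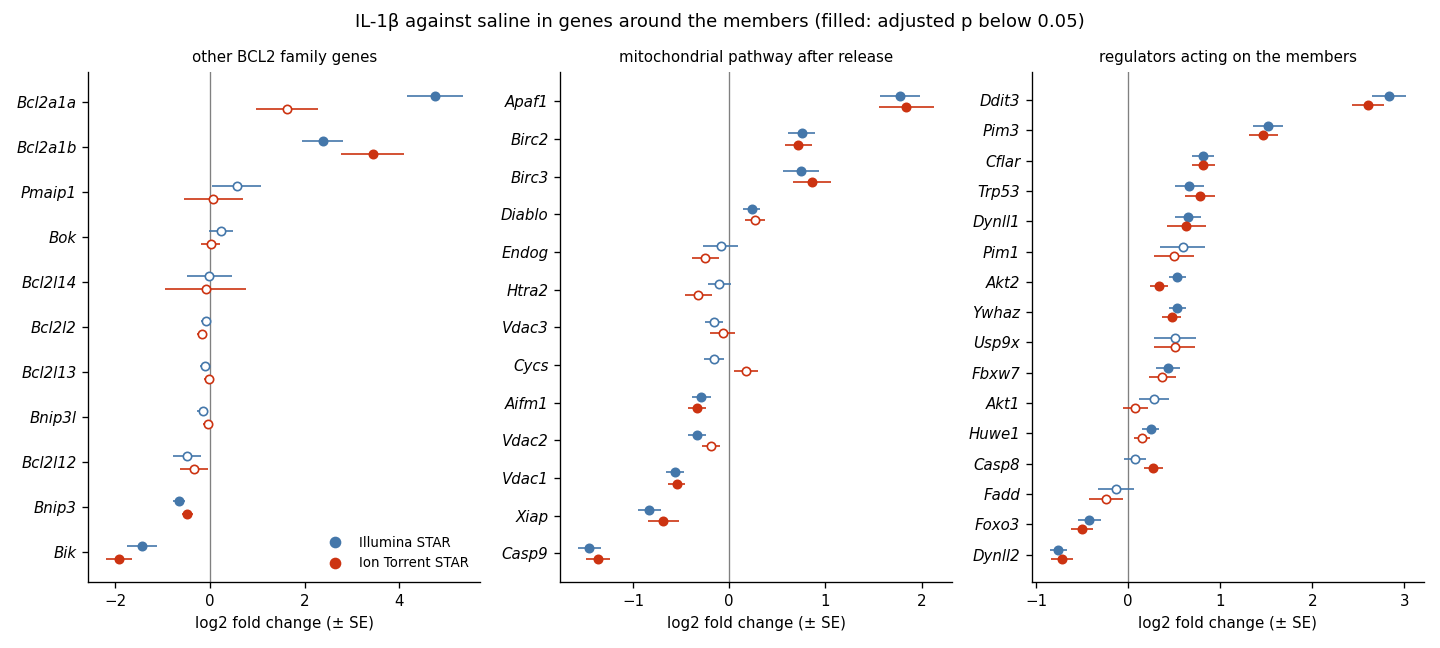
Each panel shows 1 list, with the log2 fold change of IL-1β treated against untreated livers ± SE (5 mice per group) on the horizontal axis for each tested gene, Illumina STAR in blue, Ion Torrent STAR in red and filled points for an adjusted p below 0.05 by edgeR. Ddit3 at 2.84 and Apaf1 at 1.78 head the right and middle panels, and Casp9 at -1.45 is the lowest of the middle one.

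The genes whose pattern was most like that of a member were sought over the 10 Illumina STAR libraries among 9277 others averaging 50 reads or more. This was done for Bcl2l1, the called member with the most reads, and for Bmf, the member with the largest change. Log2 CPM of Bcl2l1 was most like that of Ptpn23 (Pearson's r = 0.995), Rela (0.992) and Rnf44 (0.990), and in the Ion Torrent STAR libraries of the same mice these values were 0.96, 0.97 and 0.91. Rela encodes the p65 subunit of NF-κB. For Bmf the closest genes were Enpp5 (0.988), Haus4 (0.987) and F2r (0.986), with 0.94, 0.95 and 0.93 in the Ion Torrent data. All 10 libraries entered each value, so the difference between the treatments is part of it.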

How the data were processed

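Processed counts of the 20 liver libraries of 10 mice were used, 60 columns in 6 tables. The authors aligned the reads to mm9 with STAR 2.5.1b, GSNAP or STAR followed by Bowtie2 2.2.9. With PORT they then removed ribosomal and mitochondrial reads, assigned reads to Ensembl genes and, table by table, re-sampled all libraries to a common depth, which left the deposited whole-number counts per gene. Whether an Illumina count is a read pair, and whether counting used strand, is not given in the sources used here.

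The 15578 genes that reached 5 reads in 5 libraries of any table were tested within each table by edgeR 4.0.16 (R 4.3.3), with TMM scaling, the quasi-likelihood test and Benjamini-Hochberg adjustment. The standard error is the log2 fold change divided by the root of the F statistic. Alternatives were other scalings, filters, tables, DESeq2 1.42.0, limma-voom 3.58.1, the study's own Mann-Whitney test and leaving out each mouse. Leaving out mice and other scalings in the Ion Torrent STAR table were added after seeing the data. Scripts were tested on simulated data. The 2 libraries of a mouse carry its number, and their deviations from the group mean correlated at 0.25 (mouse UNT_9584) to 0.74 over 10543 genes, so the platform-by-treatment term has the mouse as a block. No pair of replicate libraries agreed within sampling noise. Lengths, GC content and positions, counted from 1, are from GENCODE vM1 on NCBIM37, which held 37310 of the 37681 identifiers. Each mouse counted once within a table.

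The members, lists and rules were chosen with earlier results of these data known. All members are named, as are the called genes of each list, with values for up to 5 per list by size of change, and the 3 genes most like 2 of the members. From the list of genes acting after the mitochondria open, 2 were withheld and are not reported here, in its counts, median or plot.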

Additional observations from a re-analysis of the deposited data

Results flagged for a closer look

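Bax in the treated Illumina STAR libraries was the 1 member value that stood apart from the others of its group, among 40 groups of 5 livers examined (10 members, 2 treatments and 2 platforms). Mouse ILB_9578 had 28.3 CPM, and the other 4 treated livers had 23.8 to 24.7 CPM. The gap took up 0.81 of the whole range. In its Ion Torrent library mouse ILB_9578 had 33.5 CPM of Bax, inside the range of the treated livers. The 40 groups share their mice and are not independent. How often chance would mark a group was not tested, and no pattern is read from 1 in 40.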

How the results depend on the processing

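Of the members, Bcl2l1, Bax, Bmf and Bcl2l11 kept their direction and their call in the Illumina STAR table under 16 alternatives (the other 5 tables among them) and with each mouse left out (log2 fold changes of 1.60 to 1.93, 0.65 to 0.97, -2.81 to -2.31 and -0.94 to -0.67). Bbc3 was called in 13 of the 16, but not by limma-voom or by Mann-Whitney tests with or without TMM, and in 9 of 10 fits without a mouse. Bak1 was called in 8 of 16 and in 3 of 10. Bcl2 was called lower only with the columns taken as already normalized (-0.67, edgeR adjusted p = 0.0402). In the Ion Torrent STAR table, Mcl1 was called in 3 of 10 fits without a mouse. The number of members called was 2 to 3 higher and 2 to 3 lower without a mouse, against 3246 to 3526 higher and 3253 to 3494 lower over all genes. A further minimum of 1 for the absolute log2 change left 1 member higher (Bcl2l1) and 2 lower (Bmf and Bbc3). That minimum was not applied to the count over all genes. Over all genes, the Mann-Whitney test on deposited counts called 2142 higher against 3541.

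Members that were not called changed sign in places. Mcl1 was at -0.0477 with the columns taken as already normalized and at -0.0478 in the Mann-Whitney counts. Bid was at -0.0217 with column totals, -0.07 with the columns as already normalized, -0.0701 in the Mann-Whitney counts and -0.0446 to 0.2114 without a mouse. Bad was at 0.0399 with limma-voom, 0.0014 with STAR + Bowtie2, 0.069 with Ion Torrent STAR and -0.1695 to 0.1179 without a mouse, and in the Ion Torrent STAR table at -0.0459 with column totals, -0.0891 with the columns as already normalized and -0.0011 without the 20 most abundant genes. The cause was not tested.

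The platform-by-treatment term was called for 0 members with the replicate block, with no replicate block and with each mouse left out. Without the block the term of Bcl2l1 was 0.0051 instead of -0.0165, and with it the term of Bad was -0.0101 with GSNAP and -0.024 with STAR + Bowtie2. Leaving out a mouse gave terms of -0.6907 to 0.021 for Bcl2, -0.0647 to 0.0819 for Bcl2l1, -0.5215 to 0.1973 for Bbc3, -0.1925 to 0.0008 for Bak1 and -0.0312 to 0.2883 for Bad.

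Of the other family genes, 1 was called higher with Ion Torrent STAR, and 4 were called lower with the columns as already normalized. With the longest transcript as length, the share of Mcl1 among Mcl1, Bcl2 and Bcl2l1 was 45.24% in treated and 71.88% in untreated Illumina livers. Depth limits Bcl2 and Bbc3 most, with at most 44 reads in an Illumina library.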
